A study of Mus musculus with 5 samples.

Results

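Genes of the proteasome and of class I peptide loading were examined in CD11b+Gr1+ cells sorted from mouse lungs. Members were the genes whose symbol starts with Psma, Psmb, Psmc, Psmd, Psme, Psmf or Psmg followed by a number, plus B2m, Tap1, Tap2, Tapbp, Erap1, Calr, Canx and Pdia3, provided that a probe set of the array carried that symbol alone. This gave 50 genes out of 14807, of which 42 have a proteasome symbol and 8 belong to class I loading, and 2 probe sets shared by Psme2 and Psme2b were added. Psma4 and Psmd1 had only probe sets shared with other genes, and Psma5, Psma8, Psmb3, Psmb5 and Psmg4 were not analysed here. Tumour-challenged mice were wild-type and had carried subcutaneous LLC-RFP cells (Lewis lung carcinoma with a red fluorescent protein, 5000000 cells injected) for 9 days, and 2 arrays came from them. Control mice were wild-type without a tumour, and 3 arrays came from them. Itgam encodes CD11b, and antibodies to Gr1 bind Ly6 proteins, so both granulocytes and inflammatory monocytes fall in the gate. About 100000 sorted cells were used for an RNA sample, and the RNA was amplified before labelling. The labels do not say whether the arrays of a group came from single mice or pools, so the p-values measure the spread between these samples, which may be technical.

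The proteasome degrades ubiquitin-tagged proteins. Its barrel-shaped 20S core is built of alpha rings, which gate the entrance, and beta rings, which hold the proteolytic sites, and the 19S cap recognises, unfolds and feeds in the substrate. Interferon gamma induces replacement beta subunits (Psmb8, Psmb9 and Psmb10) that form the immunoproteasome, and the PA28 activator made by Psme1 and Psme2, which together favour peptides that fit MHC class I. The transporter Tap1/Tap2 carries such peptides into the endoplasmic reticulum, where tapasin (Tapbp), calreticulin (Calr) and the disulfide isomerase Pdia3 load them on a class I heavy chain paired with beta-2 microglobulin (B2m).

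The upstream windows of 4 members are shown because these genes bracket the results. B2m had the largest negative difference among the members in the deposited values, though not after quantile normalization. Psmb8 and Psmb9 are interferon-inducible catalytic subunits, and Psmd2 had the smallest p of the members in the deposited values. Each window holds the 250 bases before the annotated start, on the gene's strand, 5′ to 3′, from RefSeq (GRCm38.p6). Capitals mark a match, on either strand, to the interferon-stimulated response element GAAANNGAAA or to the gamma-activated site TTCNNNGAA, and the 2 kinds of match do not overlap in these windows.
B2m (chr2:122147437-122147686, plus strand): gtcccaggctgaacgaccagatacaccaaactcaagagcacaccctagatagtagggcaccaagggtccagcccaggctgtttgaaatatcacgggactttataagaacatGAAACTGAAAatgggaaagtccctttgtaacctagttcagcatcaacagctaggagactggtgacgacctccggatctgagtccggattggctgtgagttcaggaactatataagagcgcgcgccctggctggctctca
Psmb8 (chr17:34197945-34198194, plus strand): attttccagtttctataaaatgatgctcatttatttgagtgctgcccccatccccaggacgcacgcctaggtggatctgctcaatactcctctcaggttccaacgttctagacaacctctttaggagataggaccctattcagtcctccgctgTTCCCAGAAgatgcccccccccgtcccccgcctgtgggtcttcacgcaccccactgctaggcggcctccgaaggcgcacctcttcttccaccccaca
Psmb9 (chr17:34187331-34187580, minus strand): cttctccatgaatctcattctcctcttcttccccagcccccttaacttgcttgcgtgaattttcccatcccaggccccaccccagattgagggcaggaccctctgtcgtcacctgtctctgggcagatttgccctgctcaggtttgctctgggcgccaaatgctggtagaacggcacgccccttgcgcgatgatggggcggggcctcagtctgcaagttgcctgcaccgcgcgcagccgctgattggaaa
Psmd2 (chr16:20651402-20651651, plus strand): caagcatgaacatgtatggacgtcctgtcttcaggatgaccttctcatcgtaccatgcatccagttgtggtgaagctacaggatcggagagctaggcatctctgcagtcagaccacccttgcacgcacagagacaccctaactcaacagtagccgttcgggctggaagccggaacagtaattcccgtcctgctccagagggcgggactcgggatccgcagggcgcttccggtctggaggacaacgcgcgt
The window of B2m held 1 match to GAAANNGAAA and that of Psmb8 held 1 match to TTCNNNGAA, while those of Psmb9 and Psmd2 held neither. Over all 32851 windows of this length, 2.98% held the first motif and 7.02% the second. A window was found for 42 of the 50 members, of which 3 genes (7.14%) held the first motif and 2 genes (4.76%) the second, against 3.46% and 8.13% of all 27025 genes. The window of Psmb9 is nearly that of Tap1 read from the other strand: 225 of its bases lie in the upstream window of both genes, which are transcribed away from each other from starts 226 bases apart.

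None of the 50 members reached an adjusted p under 0.05. The limma fit to 16661 probe sets, with Benjamini-Hochberg adjustment, made 0 calls in the higher direction and 0 in the lower (0% each). An unadjusted p under 0.05 was found for 1090 (6.54%), of which 597 were higher (3.58% of those tested) and 493 lower (2.96%). The smallest adjusted p among the members was 0.620 and the smallest of all probe sets 0.495. Across the array, 57.6% of probe sets had a positive and 42.4% a negative difference, with a median of 0.02 log2. Array medians lay between 6.77 and 6.88. Because nothing passed, the members are described by their values, by the sign of their differences and by whether the arrays of the groups overlapped. Arrays are called separate where both tumour-challenged arrays lay above, or both below, all 3 controls. This held for 11.2% of all probe sets in the higher and 7.83% in the lower direction, and for 11 of the 50 members (22%) in the higher and 1 (2%) in the lower. A background level of 6.89 was taken as the 95th percentile of 832 probe sets of chemosensory receptors, which these cells are not expected to express. Of the 50 members 48 lay above it in both groups. Psma3 and Psmb11, the beta subunit of thymic epithelium, lay below it in both groups, Psmb11 with 5.56 and 5.74 in tumour-challenged arrays, against 5.23, 5.72 and 4.99 in controls. The measured markers of the sorted population (Itgam, S100a8, S100a9, Csf3r and Cxcr2, 5 of 8 listed) had a mean level of 11.68 and 11.41 in the tumour-challenged arrays and of 11.56 to 11.68 in the controls.

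Genes of the constitutive proteasome had mostly small positive differences in the 20S core and the 19S cap, which shrank without tumour-challenged replicate 1. Of the 26 subunits of the 20S core and the 19S cap, 23 had a positive difference, against 57.6% of all probe sets. Their median was 0.28 log2, against 0.02 over all probe sets. Separate arrays were found for 8 subunits (30.8%) in the higher direction and for 0 in the lower. The brightness range of the 25 subunits above background holds 6838 probe sets, of which 4529 had a positive difference. In that range the arrays of 15.4% did not overlap in the higher direction and the median difference was 0.08. An unadjusted p under 0.05 was reached by 4 of the 26 (15.4%), against 6.54% of all probe sets and 8.66% of those in that brightness range, and none passed after adjustment (limma with Benjamini-Hochberg adjustment, adjusted p from 0.620 upward). Without tumour-challenged replicate 1, 18 of the 26 subunits had a positive difference and the median was 0.14. In tumour-challenged replicate 2, the mean deviation from the control mean was -0.05 for the alpha ring and 0.21 for the beta ring. It was 0.12 for the ATPases of the 19S cap and 0.14 for its other subunits. In sorted-cell RNA, a change in the mixture of cells and a change per cell cannot be told apart.

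The beta ring carries the proteolytic sites. Psmb1, a structural beta subunit, had values of 10.95 and 10.65 in tumour-challenged arrays, against 10.41, 10.35 and 10.18 in controls. All tumour-challenged values lay above all controls, and the log2 difference was 0.49 ± 0.13 (SE, 2 against 3 arrays), a 1.40-fold difference with a limma adjusted p of 0.664. Psmb6, the caspase-like catalytic subunit that Psmb9 replaces, had 11.58 and 11.40 in tumour-challenged arrays, against 11.32, 11.11 and 11.05 in controls. Its groups were also separate, with a difference of 0.33 ± 0.12 (SE, adjusted p = 0.736 by limma). Psmb7, the trypsin-like subunit that Psmb10 replaces, had 10.30 and 10.05 in tumour-challenged arrays, against 10.14, 9.88 and 9.70 in controls, so the groups overlapped, with a difference of 0.26 ± 0.16 (SE). Psmb4, another structural subunit, had the largest difference of all 50 members, 0.58 ± 0.41 (SE, adjusted p = 0.843 by limma). Its values were 11.67 and 11.33 in tumour-challenged arrays, against 11.36, 11.20 and 10.19 in controls, so 1 low control array set much of that size, and without control replicate 3 the difference was 0.22. Psmb2 had 10.30 and 9.72 in tumour-challenged arrays, against 9.96, 9.76 and 9.73 in controls. Tumour-challenged replicate 2 lay below all controls for that gene, and the difference was 0.19 ± 0.20 (SE).

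Of the alpha ring 5 genes were measured, 4 with a positive difference and 0 with separate arrays (against 11.2% higher and 7.83% lower over all probe sets). Psma2 had 11.07 and 10.60 in tumour-challenged arrays, against 10.73, 10.55 and 10.29 in controls, a difference of 0.31 ± 0.21 (SE). Psma6 (11.24 and 10.82 in tumour-challenged arrays, against 10.89, 10.79 and 10.66 in controls) and Psma7 (11.83 and 11.33 in tumour-challenged arrays, against 11.54, 11.33 and 11.13 in controls) each differed by 0.25. In each of these genes tumour-challenged replicate 1 was the highest array and tumour-challenged replicate 2 fell among the controls. Without tumour-challenged replicate 1 the differences were 0.08 for Psma2, 0.04 for Psma6 and -0.005 for Psma7. Psma1 had a difference of 0.20 ± 0.21 (SE), which was -0.10 once tumour-challenged replicate 1 was left out. Psma3, below background, had 5.19 and 4.77 in tumour-challenged arrays, against 4.96, 4.84 and 5.27 in controls.

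**Figure D1:**
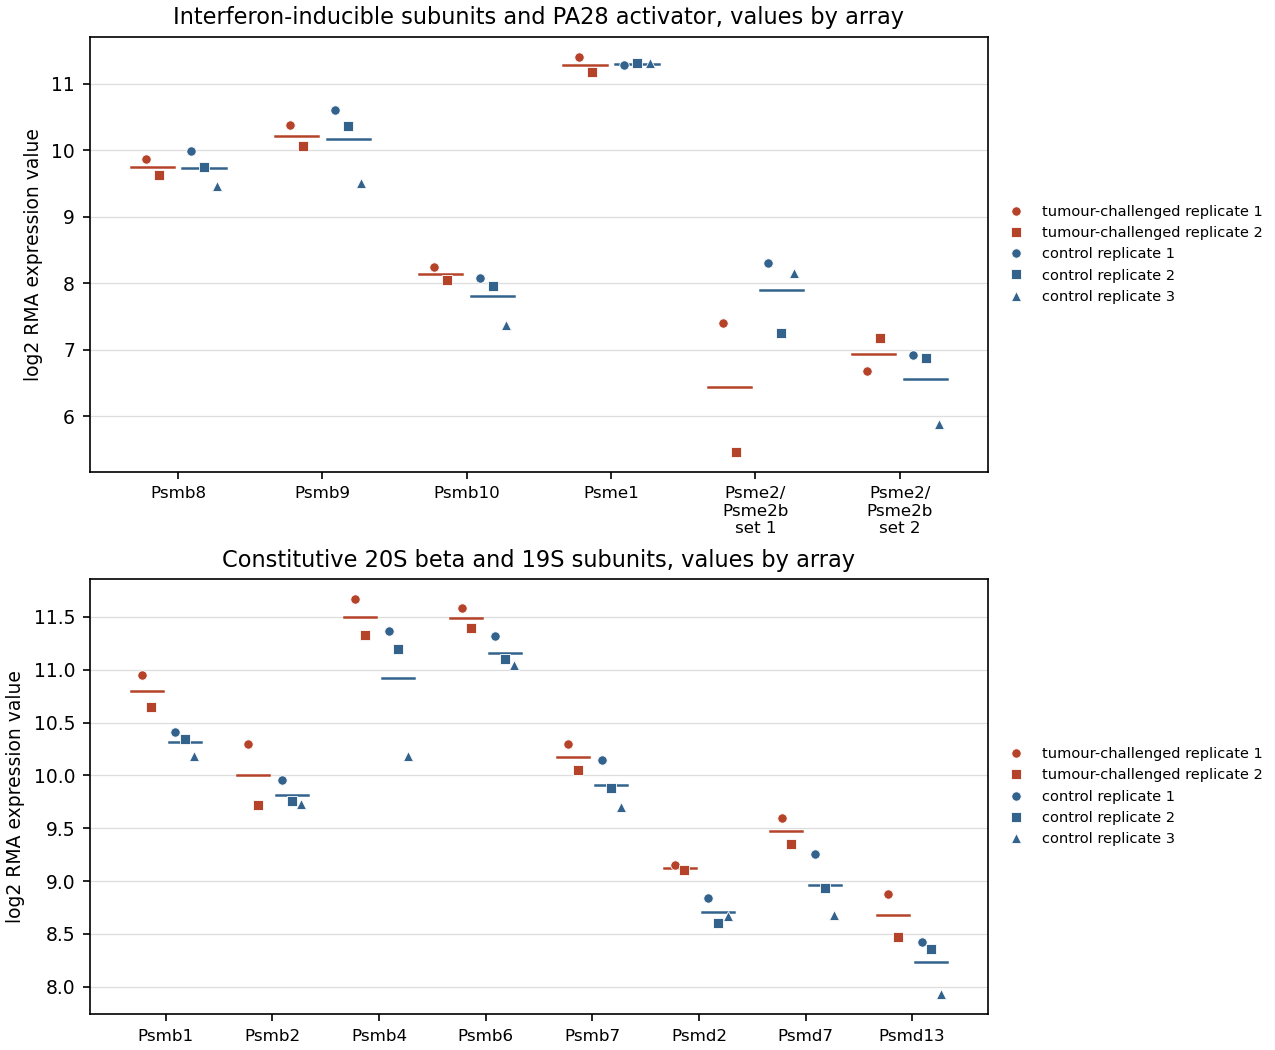
Log2 RMA values (vertical axes) of the interferon-inducible subunits and the PA28 activator (upper panel) and of constitutive 20S beta and 19S subunits (lower panel), 1 point per array, with tumour-challenged arrays left of controls and lines at the group means. Tumour-challenged and control arrays interleave for Psmb8, Psmb9 and Psmb10, are separate for Psmb1, Psmb6, Psmd2, Psmd7 and Psmd13, and are widely scattered for the first Psme2 and Psme2b probe set, where tumour-challenged replicate 2 is at 5.46.

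The 19S cap had 16 measured subunits, 14 with a positive difference (against 57.6% of all probe sets) and a median of 0.29 log2. Separate arrays were found for 6 (37.5%), all higher. That share was 11.2% over all probe sets and 15.4% in the brightness range of the constitutive subunits. Psmd2, the scaffold Rpn1 of the base that docks ubiquitin receptors, had the smallest p of the members. Its values were 9.16 and 9.10 in tumour-challenged arrays, against 8.84, 8.60 and 8.67 in controls. The difference was 0.42 ± 0.09 (SE), with an unadjusted p of 0.0084 and an adjusted p of 0.620 by limma, and it ran from 0.37 to 0.49 when any 1 array was left out. Psmd7, Rpn8, partner of the deubiquitinase in the lid, had 9.60 and 9.35 in tumour-challenged arrays, against 9.26, 8.94 and 8.68 in controls, a difference of 0.52 ± 0.20 (SE, adjusted p = 0.760 by limma). Psmd13, the lid subunit Rpn9, had 8.88 and 8.47 in tumour-challenged arrays, against 8.42, 8.36 and 7.93 in controls, a difference of 0.44 ± 0.21 (SE). The nearest arrays of the 2 groups were 0.26 log2 apart for Psmd2, 0.09 for Psmd7 and 0.05 for Psmd13. Psmd14, the lid deubiquitinase Rpn11, had a small negative difference, with 9.79 and 9.51 in tumour-challenged arrays, against 9.75, 9.57 and 9.74 in controls (difference -0.04 ± 0.12, SE).

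The ATPases of the base unfold the substrate. Psmc2, Psmc4 and Psmc5 differed by 0.27 ± 0.10, 0.36 ± 0.20 and 0.34 ± 0.22 (SE). Psmc4 had 8.94 and 8.60 in tumour-challenged arrays, against 8.57, 8.56 and 8.12 in controls, and Psmc2 had 9.08 and 8.82 in tumour-challenged arrays, against 8.72, 8.66 and 8.65 in controls. Both were separate between groups, while Psmc5 was not, with 10.36 and 10.06 in tumour-challenged arrays, against 10.10, 10.01 and 9.51 in controls. Psmc1 had 7.83 and 7.51 in tumour-challenged arrays, against 7.69, 7.23 and 6.76 in controls. Its difference of 0.44 ± 0.31 (SE) was the largest of the ATPases, and 0.21 without control replicate 3. Psmc6 differed by -0.001 ± 0.20 (SE), with 9.12 and 8.64 in tumour-challenged arrays, against 9.10, 8.74 and 8.82 in controls. The remaining constitutive subunits, Psmc3, Psmd3, Psmd4, Psmd6, Psmd8, Psmd11 and Psmd12, had differences between 0.12 for Psmd4 and 0.34 for Psmd12, and of these Psmd12 had separate arrays.

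Dedicated chaperones put the particle together, and 5 of the 6 measured had a positive difference, with a median of 0.15 log2. Psmd10, gankyrin, which guides the base, had 10.09 and 9.74 in tumour-challenged arrays, against 9.72, 9.65 and 9.26 in controls. Psmg1, which helps to form the alpha ring, had 8.55 and 8.46 in tumour-challenged arrays, against 8.28, 8.14 and 8.42 in controls. Both had separate arrays (2 of 6, 33.3%, against 11.2% of all probe sets), with differences of 0.37 ± 0.19 and 0.23 ± 0.10 (SE). Psmd9 had 7.33 and 7.43 in tumour-challenged arrays, against 7.33, 7.31 and 6.96 in controls, and Psmd5 had 7.70 and 7.09 in tumour-challenged arrays, against 7.60, 7.20 and 7.45 in controls. Their arrays overlapped, with differences of 0.18 ± 0.14 and -0.02 ± 0.23 (SE). Psmc3ip and Psme3ip1 were taken in by their symbols and are interacting proteins, not subunits. Psmc3ip, a meiotic recombination factor, had 7.27 and 7.43 in tumour-challenged arrays, against 7.17, 7.17 and 7.16 in controls, with separate arrays and a difference of 0.18 ± 0.07 (SE). Psme3ip1 had 8.61 and 8.39 in tumour-challenged arrays, against 8.46, 8.39 and 7.75 in controls. Of probe sets that carry several symbols, the one of Ankhd1, Eif4ebp3 and Psma4 had 7.47 and 7.43 in tumour-challenged arrays, against 7.13, 7.07 and 7.14 in controls, and cannot be assigned to the alpha subunit.

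**Figure D2:**
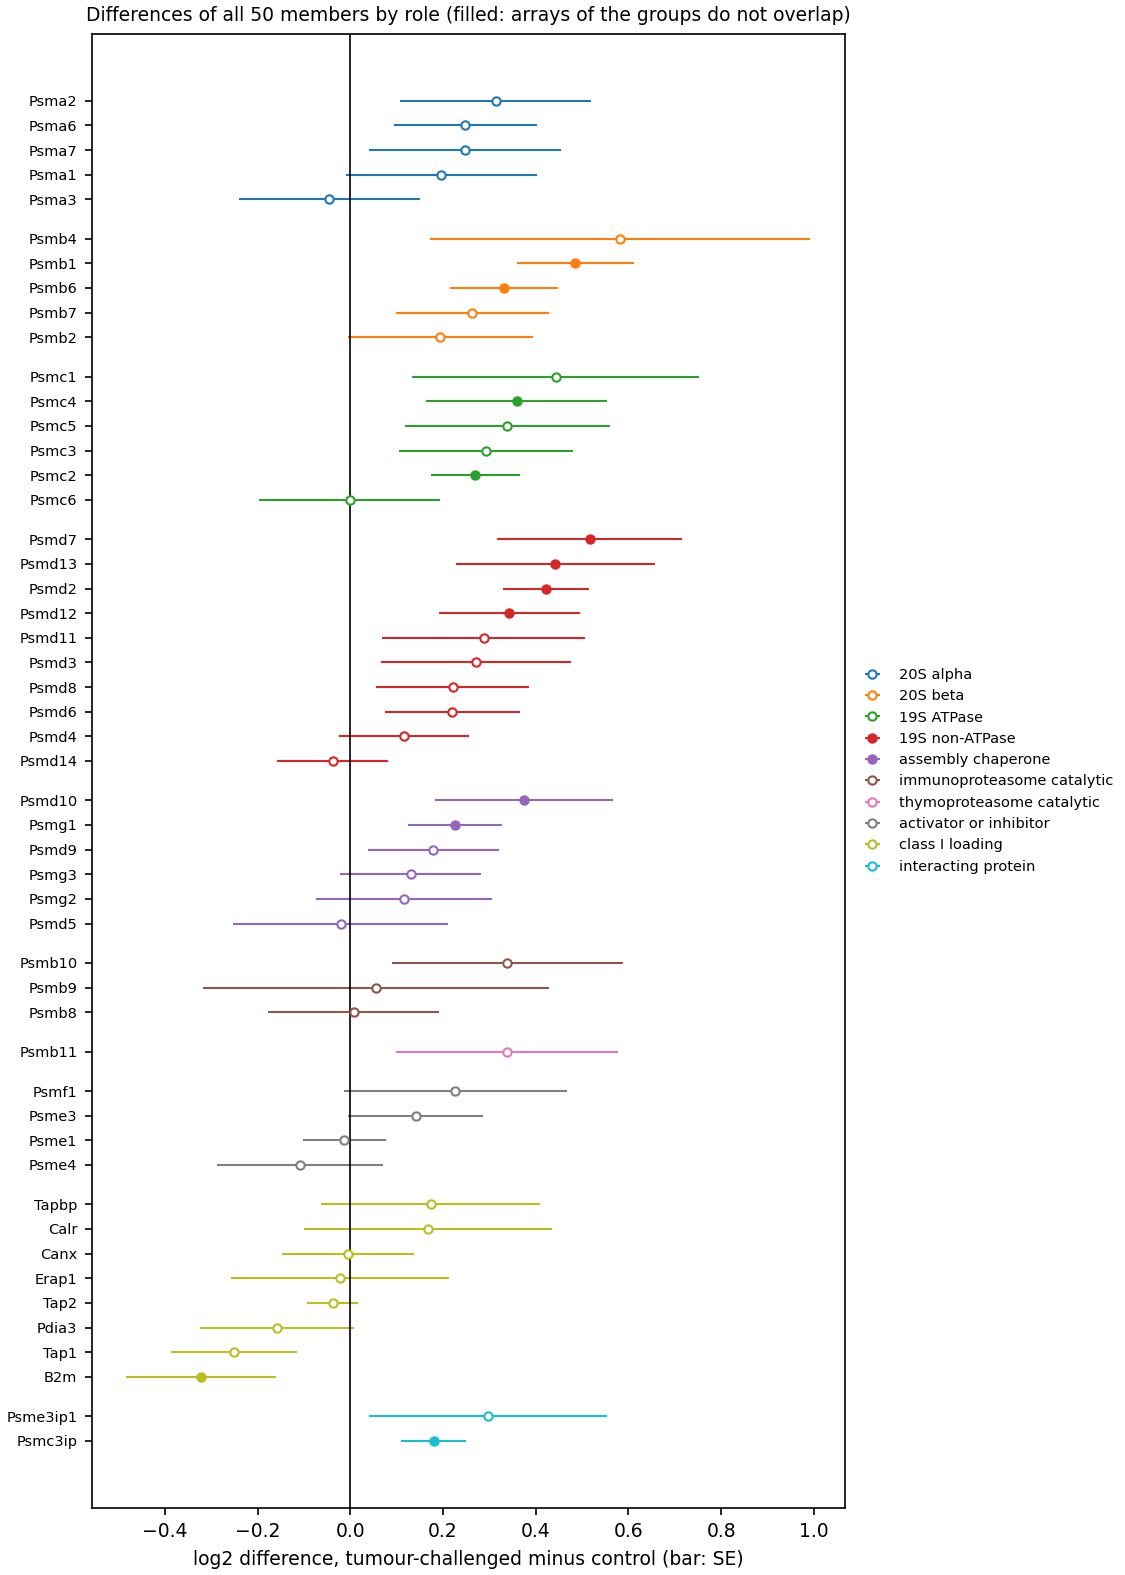
Log2 difference, tumour-challenged minus control (horizontal axis, bars are SE of the limma fit), for each of the 50 members grouped by role, with filled points where the arrays of the groups do not overlap. Of the 26 constitutive subunits 23 lie between 0.12 and 0.58, the class I loading genes lie on both sides of 0 down to -0.32 for B2m, and Psmb8, Psmb9 and Psme1 lie near 0.

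The interferon-inducible genes Psmb8, Psmb9, Psmb10 and Psme1 had a median difference of 0.03 log2, and 0 of the 4 had separate arrays. Over all probe sets 11.2% were separate in the higher and 7.83% in the lower direction. Psmb8, the chymotrypsin-like subunit of the immunoproteasome, had 9.86 and 9.62 in tumour-challenged arrays, against 9.99, 9.75 and 9.47 in controls, a difference of 0.01 ± 0.18 (SE, adjusted p = 1.00 by limma). Psmb9, which takes the place of Psmb6, had 10.38 and 10.06 in tumour-challenged arrays, against 10.61, 10.37 and 9.51 in controls, a difference of 0.06 ± 0.37 (SE, adjusted p = 0.991 by limma). Control replicate 3 was the lowest array for both. Without it their differences were -0.13 and -0.27, with each tumour-challenged value of Psmb8 and Psmb9 at or below the higher of the remaining controls. Psmb10, which takes the place of Psmb7, had 8.24 and 8.05 in tumour-challenged arrays, against 8.09, 7.96 and 7.37 in controls. Its difference of 0.34 ± 0.25 (SE, adjusted p = 0.849 by limma) was 0.12 without control replicate 3.

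Psme1, the alpha subunit of PA28, had 11.41 and 11.17 in tumour-challenged arrays, against 11.29, 11.31 and 11.30 in controls. The controls had an SD of 0.013, and the tumour-challenged arrays lay on either side of them, with a difference of -0.01 ± 0.09 (SE). Its partner Psme2 was read only by probe sets shared with the near-identical copy Psme2b, and their differences had opposite signs. The first had 7.41 and 5.46 in tumour-challenged arrays, against 8.30, 7.26 and 8.15 in controls, a difference of -1.47 ± 0.70 (SE, adjusted p = 0.804 by limma). Its group means differed over 2-fold, as those of 24 probe sets did in the higher (0.144%) and 22 in the lower direction (0.132%) and those of 0 of the 50 members did. Tumour-challenged replicate 2 set that size: without it the difference was -0.49, and tumour-challenged replicate 1 lay within the control range. The tumour-challenged mean of that probe set lay below the background level. The second had 6.68 and 7.18 in tumour-challenged arrays, against 6.92, 6.88 and 5.88 in controls, a difference of 0.37 ± 0.40 (SE), and its control mean lay below the background level. Psme3, PA28 gamma of the nucleus, had 9.42 and 9.11 in tumour-challenged arrays, against 9.28, 9.14 and 8.95 in controls. Psme4, the PA200 activator, had 9.22 and 8.84 in tumour-challenged arrays, against 9.38, 9.04 and 9.01 in controls. Psmf1, an inhibitor of the core, had 7.48 and 7.18 in tumour-challenged arrays, against 7.36, 7.24 and 6.70 in controls. The arrays of all 3 overlapped, with differences of 0.14 ± 0.15, -0.11 ± 0.18 and 0.23 ± 0.24 (SE).

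The class I loading genes had 2 positive and 6 negative differences, with a median of -0.03 log2. B2m, the light chain of all class I molecules, had 13.13 and 12.68 in tumour-challenged arrays, against 13.21, 13.13 and 13.35 in controls. It had separate arrays in the lower direction (1 of 8, 12.5%, against 7.83% of all probe sets), but the nearest arrays of the groups were only 0.0001 apart. The difference of -0.32 ± 0.16 (SE, adjusted p = 0.812 by limma) was -0.10 without tumour-challenged replicate 2. After quantile normalization it was -0.18, against -0.21 for Pdia3. B2m lay near the top of the arrays. The highest value of any probe set was 12.89 in tumour-challenged replicate 2, against 13.35 to 13.49 in the other arrays. Tap1 had 7.66 and 7.46 in tumour-challenged arrays, against 7.99, 7.63 and 7.81 in controls, a difference of -0.25 ± 0.14 (SE, adjusted p = 0.816 by limma). Its difference stayed between -0.35 and -0.15 when any 1 array was left out. Tap2, the other chain of the transporter, had 7.40 and 7.40 in tumour-challenged arrays, against 7.49, 7.44 and 7.40 in controls, a difference of -0.04 ± 0.06 (SE).

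Tapbp, the tapasin that bridges transporter and class I molecule, had 8.19 and 8.13 in tumour-challenged arrays, against 8.25, 8.15 and 7.56 in controls. Calr had 10.14 and 9.89 in tumour-challenged arrays, against 10.09, 10.08 and 9.38 in controls. For both genes control replicate 3 was low, and their differences of 0.17 ± 0.24 and 0.17 ± 0.27 (SE) became -0.04 and -0.07 without it. Pdia3 had 10.81 and 10.42 in tumour-challenged arrays, against 10.86, 10.87 and 10.59 in controls, a difference of -0.16 ± 0.17 (SE). Canx, calnexin, which folds new heavy chains, had 11.60 and 11.33 in tumour-challenged arrays, against 11.60, 11.53 and 11.27 in controls. Erap1, the aminopeptidase that trims peptides in the endoplasmic reticulum, had 8.36 and 7.79 in tumour-challenged arrays, against 8.37, 8.03 and 7.90 in controls. Their differences were near 0, at -0.005 ± 0.14 for Canx and -0.02 ± 0.23 for Erap1 (SE). Tumour-challenged replicate 2 lay above control replicate 2 for 0 of the 8 loading genes, against 42.4% of all probe sets. Tumour-challenged replicate 1 lay above tumour-challenged replicate 2 for 8 of 8, against 58.3% of all probe sets.

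**Figure D3:**
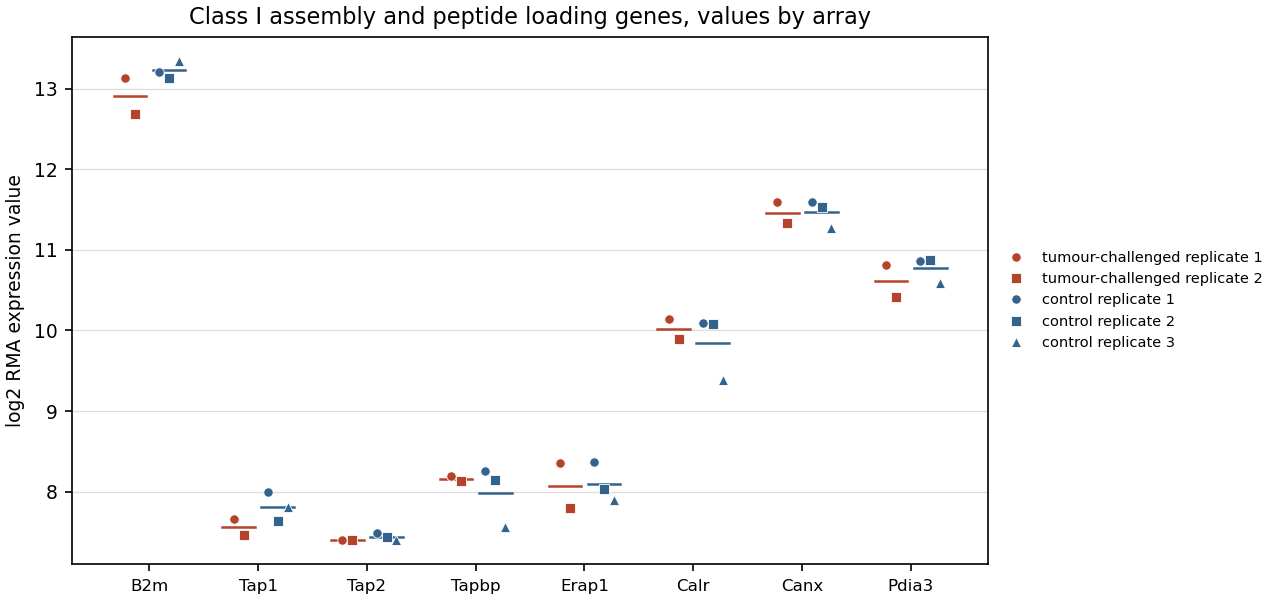
Log2 RMA values (vertical axis) of the 8 class I loading genes, 1 point per array, with tumour-challenged arrays left of controls and lines at the group means. For B2m tumour-challenged replicate 2 is the low array at 12.68, and for Calr and Tapbp control replicate 3 is the low array.

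In the RefSeq gene order of chromosome 17, Psmb9, Tap1, Psmb8 and Tap2 stand next to each other in the MHC. Their differences in that order were 0.06, -0.25, 0.01 and -0.04 log2. Psmb9 and Tap1, which share the upstream region shown above, had their lowest array in different samples: control replicate 3 for Psmb9 and tumour-challenged replicate 2 for Tap1.

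The contrast of immunoproteasome and constitutive genes was followed array by array, as the mean deviation of each gene from its control mean. For the constitutive subunits this was 0.45 and 0.11 log2 in the tumour-challenged arrays, against 0.17, 0.01 and -0.18 in controls. For Psmb8, Psmb9, Psmb10 and Psme1 it was 0.22 and -0.03 in the tumour-challenged arrays, against 0.24, 0.10 and -0.34 in controls. Immunoproteasome minus constitutive was -0.23 and -0.14 in the tumour-challenged arrays, against 0.07, 0.08 and -0.16 in controls. The immunoproteasome genes were thus lower relative to the constitutive subunits in both tumour-challenged arrays and in control replicate 3, and the groups overlapped. The difference of the contrast was -0.18, against an SD of 0.14 among controls, and it ran from -0.26 to -0.14 when any 1 array was left out. With Psmb8, Psmb9 and Psmb10 set against Psmb6 and Psmb7 alone it was -0.15 and -0.18 in the tumour-challenged arrays, against 0.13, 0.16 and -0.29 in controls. Psmb5, the counterpart of Psmb8, was not analysed, so Psmb8 had no counterpart in that setting. A score over chosen genes was given no p.

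The constitutive subunits followed an order of the arrays that was not the order of the groups. Tumour-challenged replicate 1 was the highest array for 24 of the 26 (92.3%, against 36.2% of all probe sets), and control replicate 3 the lowest for 20 (76.9%, against 36.3%). Tumour-challenged replicate 2 lay above control replicate 1 for 9 of the 26 (34.6%, near the 40.9% of all probe sets). Respiratory chain genes, listed as a sign of shifts across the array (19 of 26 measured), had mean deviations of 0.51 and 0.10 in the tumour-challenged arrays, against 0.20, 0.02 and -0.22 in controls. That is the same order as in the constitutive subunits, and its part in their differences was not tested. The upper quartile of the arrays was also highest in tumour-challenged replicate 1 and lowest in control replicate 3. The respiratory chain genes had a median difference of 0.35 log2, with 18 of 19 positive. Of these 19, 4 were separate in the higher direction, against 11.2% of all probe sets, and 0 in the lower. Without tumour-challenged replicate 1 the median difference of the constitutive subunits was 0.14, with 18 of 26 positive, and without control replicate 3 it was 0.18. The median of the 4 immunoproteasome genes was -0.11 without tumour-challenged replicate 1 and -0.07 without control replicate 3, and that of the loading genes -0.22 and -0.11. In each of the 5 sets of 4 arrays that leave 1 array out, the constitutive median was the highest of the medians and the loading median the lowest.

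**Figure D4:**
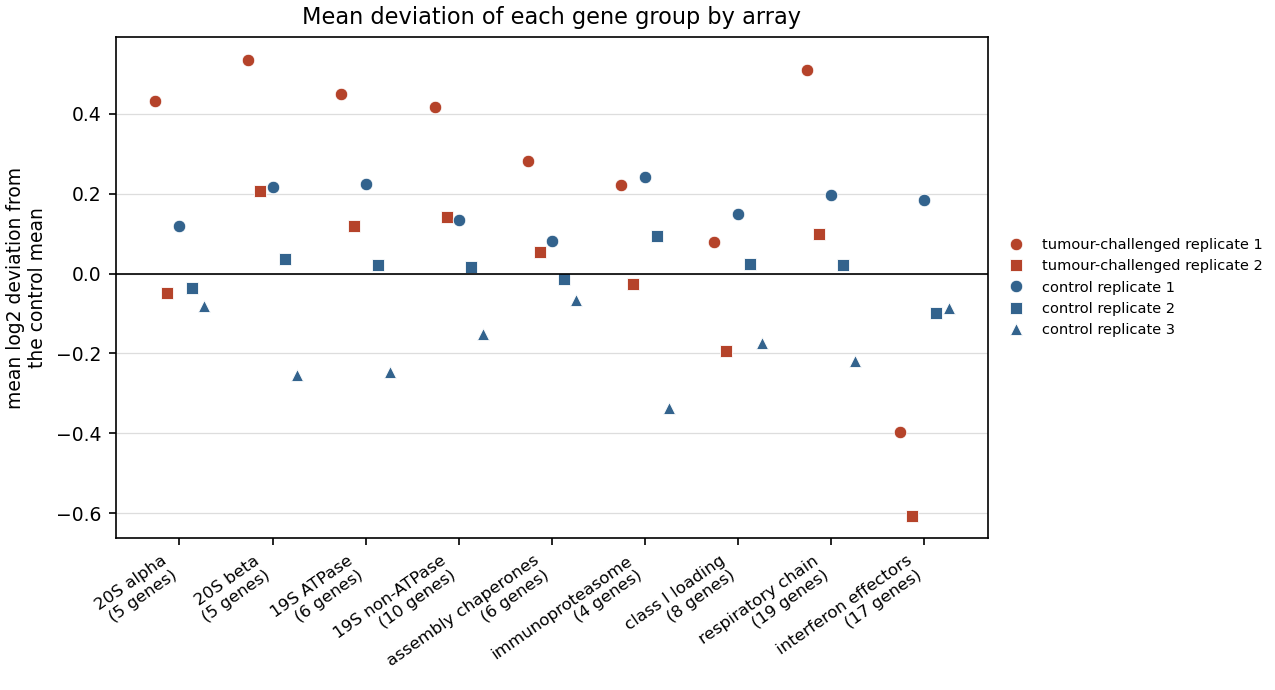
Mean log2 deviation from the control mean (vertical axis) of gene groups in each of the 5 arrays, with tumour-challenged arrays left of controls. The constitutive groups and the respiratory chain place tumour-challenged replicate 1 at the top and control replicate 3 at the bottom, while the interferon effectors place both tumour-challenged arrays at the bottom (-0.40 and -0.61).

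**Figure D5:**
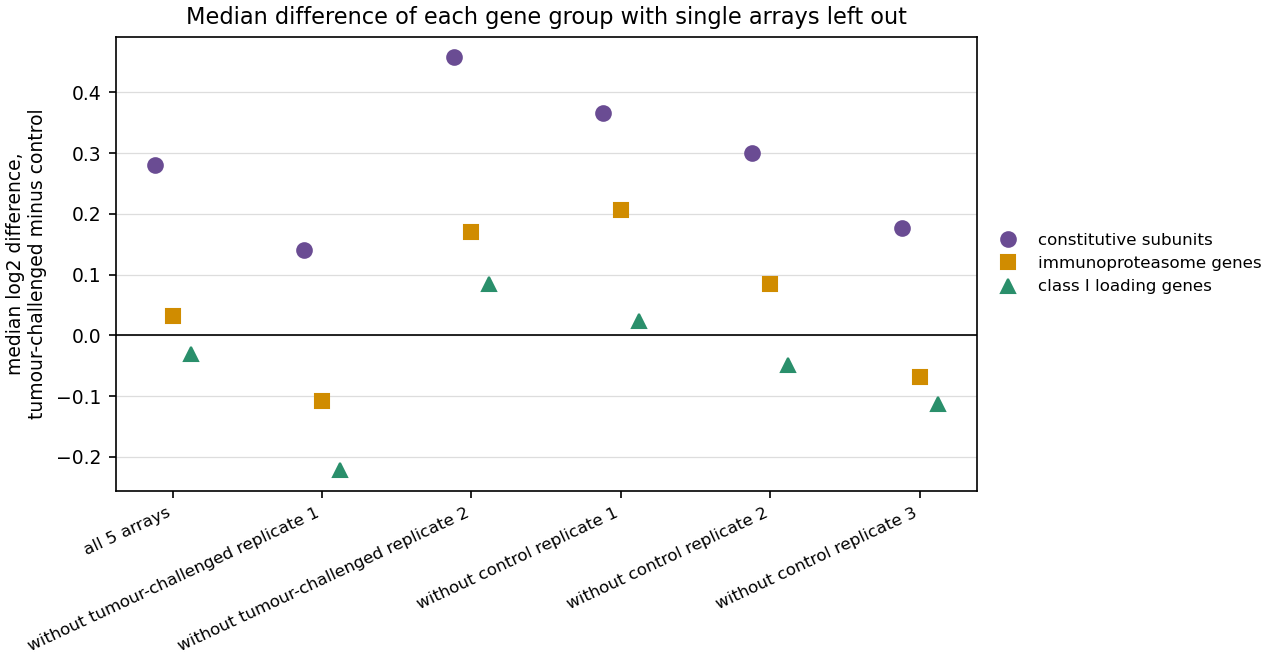
Median log2 difference, tumour-challenged minus control (vertical axis), of the constitutive subunits, the immunoproteasome genes and the class I loading genes with all 5 arrays and with each array left out in turn. The constitutive median stays positive, between 0.14 and 0.46, while the immunoproteasome median runs from -0.11 to 0.21 and the loading median from -0.22 to 0.08.

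Other genes of the pathway were read from lists. Of 28 listed names for ubiquitin handling, proteasome assembly and control, 15 were measured, 11 with a positive difference and a median of 0.05 log2. Separate arrays were found for 0 of these, against 11.2% higher and 7.83% lower over all probe sets. Pomp, the maturation chaperone of the 20S core, had 12.55 and 12.21 in tumour-challenged arrays, against 12.38, 12.16 and 12.14 in controls, a difference of 0.15 ± 0.14 (SE). Ufd1, an adaptor of the p97 unfoldase, differed by 0.24 ± 0.21, Ubqln1, a shuttle for ubiquitinated proteins, by 0.20 ± 0.20 and Nfe2l2, a stress regulator of antioxidant genes, by -0.17 ± 0.16 (SE). Class I heavy chains could be read for 3 of 20 listed names, all non-classical, with differences of -0.29 ± 0.11 for H2-Q10, -0.10 ± 0.08 for H2-M2 (below background) and -0.04 ± 0.25 for Mr1 (SE). H2-K1 and H2-D1, the classical chains, were not analysed here. Of other class I pathway genes 16 of 19 were measured, 11 with a positive difference and a median of 0.08, and Sec61b, of the channel into the endoplasmic reticulum, differed by 0.54 ± 0.15 (SE, adjusted p = 0.687 by limma). Among genes of protein folding, stress response and degradation in the endoplasmic reticulum, 13 of 18 measured had a positive difference with a median of 0.13, and Dnajb9, an unfolded-protein co-chaperone, differed by -0.57 ± 0.21 (SE).

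Interferon signalling is known to induce the immunoproteasome genes. Of 15 measured interferon regulators 8 had a positive and 7 a negative difference, with a median of 0.08 log2. In the lower direction 2 were separate (13.3%, against 7.83% of all probe sets). Those were Stat2 and Irf7, of type I interferon signalling, at -0.52 ± 0.17 and -0.50 ± 0.22 (SE, adjusted p of 0.717 and 0.798 by limma). Interferon effectors, which are not members, were negative in 17 of 17 measured genes, with 14 separate in the lower direction (82.4%, against 7.83% of all probe sets) and mean deviations of -0.40 and -0.61 in the tumour-challenged arrays, against 0.19, -0.10 and -0.09 in controls. For the immunoproteasome genes 0 of 4 were separate in that direction.

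Markers of the sorted cells and of other cell types were read in the same arrays. B-cell markers (9 of 10 measured, 1 below background in both groups) had a mean level of 7.02 and 7.02 in the tumour-challenged arrays, against 7.43 to 7.66 in controls, with 9 of 9 differences negative. Dendritic cell markers (9 of 11, 3 below background) had 7.42 and 7.16 in tumour-challenged arrays, against 7.38 to 7.43 in controls, with 6 of 9 negative. Alveolar macrophage markers (9 of 12, 0 below background) had 8.26 and 8.22 in tumour-challenged arrays, against 8.39 to 8.48 in controls, with 6 of 9 negative. Markers of monocytic cells (6 of 7) had 11.47 and 10.83 in tumour-challenged arrays, against 10.27 to 10.70 in controls, with 6 of 6 positive. The sizes were uneven: Vcan differed by 2.23, and F13a1, Fn1 and Cd14 by 0.79, 0.65 and 0.29. Ccr2 and Csf1r differed by 0.04 and 0.07, and by -0.22 and -0.19 without tumour-challenged replicate 1. Granulocytic markers (8 of 9) had 10.47 and 10.46 in tumour-challenged arrays, against 9.73 to 9.87 in controls, with 4 of 8 positive. Their mean difference was 0.66 and their median 0.10: Ngp, Ltf and Camp, of secondary granules, differed by 2.12, 1.83 and 1.56, while S100a8, S100a9, Csf3r and Cxcr2 had differences between -0.22 and -0.08. Lung epithelial markers (12 of 13) had 8.44 and 8.38 in tumour-challenged arrays, against 7.84 to 8.41 in controls, with 10 of 12 positive. Erythroid markers (5 of 8, 2 below background) had 6.79 and 6.86 in tumour-challenged arrays, against 6.12 to 6.41 in controls. Their differences were positive in 5 of 5, with a median of 0.54, and 3 were separate in the higher direction, against 11.2% of all probe sets. Those 3, Alas2, Slc4a1 and Car2, had control means of 6.46, 6.78 and 6.39, also below the background level. The erythroid, monocytic and lung epithelial differences were mostly positive, as were those of the constitutive subunits and 57.6% of all probe sets. Their mean deviations by array were unlike. Lung epithelial markers had 0.34 and 0.28 in tumour-challenged arrays, against -0.26, 0.32 and -0.05 in controls. Erythroid markers had 0.50 and 0.57 in tumour-challenged arrays, against 0.05, 0.12 and -0.17 in controls. Monocytic markers had 1.00 and 0.36 in tumour-challenged arrays, against 0.23, -0.03 and -0.20 in controls. Eosinophil markers (4 of 5, 2 below background) had 6.28 and 6.43 in tumour-challenged arrays, against 6.56 to 6.73 in controls, with 3 of 4 negative. Endothelial markers (8 of 8, 2 below background) had 7.51 and 7.52 in tumour-challenged arrays, against 7.54 to 7.78 in controls, with 6 of 8 negative. T and NK cell markers (11 of 13, 3 below background) had 7.59 and 7.29 in tumour-challenged arrays, against 7.46 to 7.61 in controls, with 6 of 11 positive. The part of these markers in the values of the proteasome and loading genes was not tested.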

How the data were processed

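The deposited values were log2 expression values, for which the authors, per the submitters' processing notes, used RMA. That method usually includes a background correction, quantile normalization and a median-polish summary per probe set. The deposited arrays did not share 1 distribution, as their upper quartiles and highest values differed. No version of it was stated, the role of the genome build in those notes is unknown, and scanner files were not used here. Probe sets were named from the platform annotation, in which 14939 carried 1 gene symbol, 989 carried several and 733 had none listed here.

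Tumour-challenged minus control was fitted to the deposited log2 values with limma 3.58.1 (lmFit and eBayes, R 4.3.3, two-sided). P-values were adjusted by Benjamini-Hochberg for 16661 probe sets, and 0.05 was the threshold. No filter on low values was applied, so all 50 members were tested. Each member had 1 probe set. The fit was also run on simulated data. Those had independent noise in each probe set and no shift across an array, so they say nothing on such shifts.

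The members and lists were chosen with earlier results of these data known. Named genes were the immunoproteasome genes, their counterparts, the class I loading genes and, per role, up to 3 further members with the largest absolute difference and the 1 with the smallest, with up to 3 genes from each other list. Psma1, Psmc2, Psmd4, Psmd12, Pomp, the granulocytic and monocytic genes and the shared Psma4 probe set were given values outside that rule, after those had been seen. The alternatives were centring, quantile normalization, a trended robust prior, a replicate block, leaving out the dimmest 25% of probe sets, leaving out each array, updated symbols, the mean of all probe sets of a gene, another background level, and for the contrast the catalytic counterparts only and medians over genes. A restriction to members above the background level and the comparison with probe sets of like brightness were added after the data were examined. Array number limits the precision: 2 arrays stood against 3.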

Additional observations from a re-analysis of the deposited data

How the results depend on the processing

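No result passed the test as deposited, and 0 probe sets passed under any alternative except centring on array medians, where 1 did (Ltf, not a member). The constitutive median stayed positive under every alternative run. The immunoproteasome median was -0.015 after quantile normalization and -0.069 with the replicate block, and the loading median was above 0 without tumour-challenged replicate 2 (0.084) or control replicate 1 (0.023). Quantile normalization gave 16 constitutive subunits with separate, higher arrays in place of 8, and leaving out single arrays gave 8 to 24 higher and 0 to 4 lower. For the immunoproteasome genes, positive differences numbered 1 of 4 after quantile normalization and 1 with a replicate block (1 to 4 with single arrays left out, against 3), and separate higher arrays 1 after quantile normalization (0 to 2, with 0 to 1 lower). For the loading genes, separate lower arrays numbered 2 after centring and 3 after quantile normalization (1 to 4, with 0 to 1 higher, against 1 lower and 0 higher), and positive differences 0 with the block (0 to 5, against 2). For none of these settings was the share of all probe sets with separate arrays worked out. Leaving out an array makes separation easier, most of all where 1 tumour-challenged array remains. These counts of separate arrays are thus not comparable with those from all 5 arrays. With the background level at the median of chemosensory receptors, 1 member lay below it in both groups in place of 2. The contrast of immunoproteasome and constitutive genes stayed negative under the alternatives that could move it. Centring cancels within an array and each member has 1 probe set, so centring and the mean of all probe sets could not. Where its arrays overlapped as deposited, they were separate with medians over genes, with subunits above background only, and without tumour-challenged replicate 2 or control replicate 3. With an array left out, fewer arrays have to lie apart.

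Differences of single genes changed sign. Psmb8 was at -0.023 after centring, -0.072 after quantile normalization and -0.13 with the replicate block, and Psmb9 at -0.0014 after quantile normalization and -0.27 with the block. With the block Calr was at -0.067, Psma3 at 0.077 and Tapbp at -0.039. Leaving out single arrays gave ranges of -0.067 to 0.30 for Calr, -0.14 to 0.13 for Canx, -0.30 to 0.26 for Erap1, -0.36 to 0.040 for Pdia3, -0.26 to 0.17 for Psma3, -0.0049 to 0.50 for Psma7, -0.094 to 0.48 for Psmb2, -0.13 to 0.135 for Psmb8, -0.27 to 0.28 for Psmb9, -0.24 to 0.24 for Psmc6, -0.33 to 0.28 for Psmd5, -0.18 to 0.11 for Psmd14, -0.13 to 0.11 for Psme1, -0.011 to 0.29 for Psme3, -0.30 to 0.083 for Psme4 and -0.039 to 0.31 for Tapbp. Psma1 (-0.10), Psmg2 (-0.12), Psmd4 (-0.041) and Psmd8 (-0.0024) also turned negative without tumour-challenged replicate 1. The cause was not tested. The block gives the same differences as leaving out control replicate 3, whose number no other array carries, but not the same tests (765 higher and 749 lower at an unadjusted p under 0.05 with the block, 436 and 513 without that array). Replicate numbers were not taken as pairs, since only 2 are shared and nothing says what they mark. Deviations from the group means correlated at 0.285 for the arrays numbered 1 and 0.222 for those numbered 2. The deviations of the 2 tumour-challenged arrays mirror each other, so these values are not independent. Tumour-challenged replicate 2 with control replicate 1 was thus at -0.285, and tumour-challenged replicate 1 with control replicate 2 at -0.222. The block made 0 calls.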
